A study of Mus musculus with 2 samples.

Results

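Nonsense-mediated decay (NMD) transcripts are messenger RNA forms whose annotated stop codon lies upstream of at least 1 exon junction in a way that marks them as likely targets of decay. The members described here are the transcripts that the GENCODE M21 mouse annotation labels as nonsense-mediated decay and that had at least 1 read in either of 2 long-read libraries of the adrenal gland. They were thus chosen by their own read counts in either library, so their number and their levels within a library are descriptions. Tests are made of differences between the libraries only, by the same test for every annotated transcript. In all, 686 of the 23029 annotated nuclear transcripts with reads were members. They lay in 606 of 13605 genes, and 6500 of the 7186 NMD transcripts of the annotation had 0 reads. Just inside the threshold, 271 members had 1 read over both libraries.

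The study sequenced RNA from adrenal glands of female mice aged 2 months from the cross B6CASTF1/J, with total RNA given as the molecule. The 2 libraries, replicate 1 and replicate 2, form a single group with no treatment or genotype contrast, so every comparison between them is a comparison of libraries. The labels leave it unclear whether the libraries come from separate mice, because the biosamples are numbered 3 and 4 while a single donor and the number 3 stand on both libraries. An RNA input of 1 µg is stated for replicate 1 only. Each p-value below covers counting error in these 2 libraries alone, not a spread between libraries, and a difference between them could be technical. Each library was sequenced as long reads and every read was assigned to a transcript model. The annotated models of nuclear genes held 925699 reads in replicate 1 and 411353 in replicate 2. The tissue label matched its markers. The 5 cortex genes Cyp11a1, Star, Cyp21a1, Cyp11b1 and Hsd3b1 summed to 62414 and 81740 CPM (read counts scaled to the same total of reads of annotated nuclear genes), and the 3 kidney genes to 4.13 and 3.98 CPM.

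As background, a ribosome that stops upstream of an exon junction leaves a protein complex in place at that junction, and the helicase UPF1 can then direct the transcript to decay. Cells make such transcripts by splicing differently, for example by including a poison exon that carries a stop codon or by skipping an exon so that the reading frame shifts. Many splicing factors limit their own level this way. Reads of these forms show the transcripts that are present at the time of sampling, after any decay.

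The reference sequences below show how reading ends early in the most read members that have a stop codon outside the reading frame of every coding transcript of the gene. They come from the M21 transcripts on build GRCm38 (mm10), not from the animals, and are coding bases in the direction of translation. Capitals run from the first base at which the reading leaves every coding transcript with the same start to the end of the stop codon, which is the last 3 letters.
Ddx5-208, chr11:106783954-106784013, minus strand, into a kept intron: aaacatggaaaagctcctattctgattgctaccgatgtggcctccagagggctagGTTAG
Cyth2-203, chr7:45808383-45810147, minus strand, after a splice site moved by 4 bases: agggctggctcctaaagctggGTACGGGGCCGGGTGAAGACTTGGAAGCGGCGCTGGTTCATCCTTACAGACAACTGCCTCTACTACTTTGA
E2f6-204, chr12:16811289-16813879, plus strand, into an added exon: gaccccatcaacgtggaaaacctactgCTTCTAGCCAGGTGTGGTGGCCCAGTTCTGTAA
Yaf2-202, chr15:93317554-93336360, minus strand, into an added exon: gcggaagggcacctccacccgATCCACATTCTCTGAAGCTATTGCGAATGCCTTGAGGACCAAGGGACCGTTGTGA
Cbarp-212, chr10:80136703-80136894, minus strand, into an added exon: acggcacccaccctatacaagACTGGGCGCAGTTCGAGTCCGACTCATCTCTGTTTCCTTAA
Pcnp-206, chr16:56024579-56029623, minus strand, after another splice site: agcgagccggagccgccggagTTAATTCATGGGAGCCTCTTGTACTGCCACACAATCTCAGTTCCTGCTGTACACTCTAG
Tk2-202, chr8:104231228-104238782, minus strand, after a skipped exon: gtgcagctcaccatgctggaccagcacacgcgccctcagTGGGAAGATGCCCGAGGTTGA
Zfand5-204, chr19:21277069-21279676, plus strand, after a skipped exon: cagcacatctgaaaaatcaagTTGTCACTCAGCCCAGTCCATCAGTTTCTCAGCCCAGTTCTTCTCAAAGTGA
In Ddx5-208 the stop codon followed within the first 5 bases of the intron. In the other 7 the new stretch ran for 21 to 71 bases.

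NMD transcripts took a small share of annotated reads, and it was nearly the same in both libraries. This depended on the denominator. Of all reads of annotated nuclear genes the share was 0.225% in replicate 1 and 0.244% in replicate 2 (two-sided Fisher's exact test, p = 0.0173). In replicate 1 the members held 2720 reads, 0.294% of annotated reads (exact Clopper-Pearson 95% interval 0.283 to 0.305%). In replicate 2 they held 1227 reads, 0.298% (0.282 to 0.315%). The mean was 0.296% ± 0.00315 (SD, n = 2), and the shares did not differ beyond counting error (two-sided Fisher's exact test, p = 0.666). Such intervals cover counting error only. Retained-intron transcripts, another class of the annotation made by incomplete splicing, took 1.07% of reads in replicate 1 and 0.705% in replicate 2 (exact test, p = 1.75e-93). Without their 10 most read transcripts these shares were 0.780% and 0.501%. There were thus 0.275 NMD reads per retained-intron read in replicate 1 and 0.423 in replicate 2, and this ratio differed between the libraries (two-sided Fisher's exact test, p = 5.49e-26, a comparison chosen after the values were seen). Processed transcripts, which have no annotated reading frame, took 0.437% and 0.341% (two-sided Fisher's exact test, p = 3.37e-16).

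**Figure D1:**
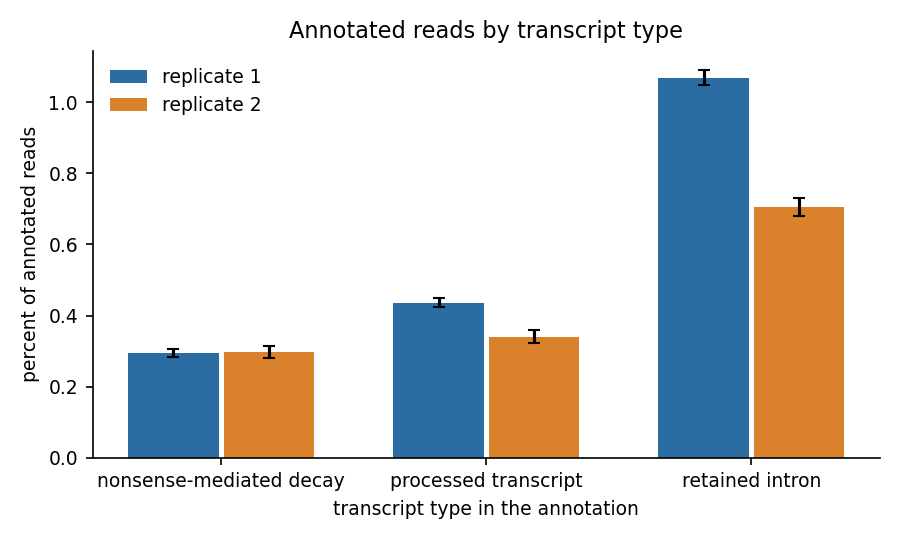
Percent of annotated reads (vertical axis) in 3 transcript types of the annotation, for replicate 1 (blue) and replicate 2 (orange), with exact 95% intervals that cover counting error. The NMD bars stand at 0.294% and 0.298%, while the retained-intron bars stand at 1.07% and 0.705%.

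Most members were read rarely. The median was 2 reads over both libraries, 171 members had at least 5 reads, 27 had at least 20 and 3 had at least 100. The 10 most read members held 34.6% of NMD reads, and Ddx5-208 by itself held 14.2% in replicate 1 and 15.1% in replicate 2. Reads were seen for 568 members in replicate 1 and for 403 in replicate 2. Both libraries held 285 of them (41.5% of members), and the same share was 25.8% for retained-intron, 33.9% for processed and 71.9% for protein-coding transcripts, which differ in reads per transcript. Whether a member was seen in both libraries followed its reads. Of the 241 members with 1 read in replicate 1, 29.0% were also read in replicate 2, as were 54.3% of the 219 with 2 to 4 reads, 81.25% of the 64 with 5 to 9 reads and all 44 with at least 10 reads.

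Having reads at all was not general for annotated NMD transcripts, even in genes that were well read. In the 3643 genes with at least 20 annotated reads in each library, 1060 carried an annotated NMD transcript, and 316 of these 1692 transcripts had reads (18.7%), spread over 274 genes. The same share was 54.9% for protein-coding, 22.5% for retained-intron and 11.2% for processed transcripts of those genes. The NMD transcripts with reads were longer in the annotation, with a median of 1426.5 bases against 794 for those without. The annotation tagged 8.86% of the former and 32.0% of the latter as incomplete at an end. These are descriptions, since the reads themselves chose the members.

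Within its gene, an NMD transcript was usually a minor form. Over the 316 members in genes with at least 20 annotated reads in each library, the median share of the gene's annotated reads was 1.78% (quartiles 0.735 and 4.56%). The share was under 5% for 241 members, at least 10% for 33 and at least 20% for 10. It passed 50% for 3 members, Cbarp-212, E2f6-204 and Cyth2-203. The next members below that level were Yaf2-202 at 45.2%, Crebzf-205 at 41.7% and Ddx5-208 at 39.8%.

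Ddx5 encodes a DEAD-box RNA helicase that acts in splicing and transcription. Its member Ddx5-208, from chr11:106781548-106788494 on the minus strand, had 385 of 960 annotated reads of the gene in replicate 1 (40.1%, interval 37.0 to 43.3%) and 185 of 468 in replicate 2 (39.5%, 35.1 to 44.1%). The libraries overlapped, and the mean was 39.8% ± 0.41 (SD, n = 2). The transcript keeps an intron of 1265 bases at chr11:106782694-106783958, so that 406 codons are read instead of 615. Reads of all model classes that crossed this place kept the intron in 489 cases and removed it in 667 in replicate 1, and kept it in 220 and removed it in 310 in replicate 2. The intron was thus kept in 42.3% and 41.5% of such reads, also outside the annotated form, with 104 and 35 of the keeping reads in unannotated models.

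E2f6, a transcriptional repressor of the E2F family, and Yaf2, a partner of Polycomb proteins, each gave many reads with an added exon that holds the stop codon. E2f6-204 had 62 of 99 annotated reads in replicate 1 (62.6%) and 22 of 28 in replicate 2 (78.6%), a mean of 70.6% ± 11.3 (SD, n = 2). Its added exon of 66 bases lies at chr12:16813847-16813912, and only 46 codons precede the stop. Yaf2-202 had 57 of 127 reads (44.9%) and 20 of 44 (45.5%), a mean of 45.2% ± 0.40, with an added exon of 70 bases at chr15:93317539-93317608. The intervals of the libraries overlapped for both members. The share over all reads of the gene, annotated or not, was 57.9% for E2f6-204 and 41.7% for Yaf2-202.

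Cyth2 encodes a cytohesin, which activates small GTPases of the ARF family. Cyth2-203 had 74 of 140 annotated reads in replicate 1 (52.9%) and 27 of 46 in replicate 2 (58.7%), a mean of 55.8% ± 4.13 (SD, n = 2). It differs from the closest coding transcript, Cyth2-202, by 4 bases at a splice site, chr7:45810123-45810126, which shift the frame. Over all reads of the gene its share was 49.3%. Differences of at most 10 bases at a splice site set apart 37 members, with 183 reads in replicate 1 and 73 in replicate 2, and whether such short differences were placed correctly in the reads was not tested.

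Cbarp, a regulator of voltage-gated calcium channels in neuroendocrine cells, was read almost only as its NMD form among annotated models. Cbarp-212 had all 21 annotated reads of the gene in replicate 1 and 34 of 35 in replicate 2, a mean of 98.6% ± 2.02 (SD, n = 2). The other reads of the gene lay in unannotated models, and with all reads of the gene as denominator the share was 27.3% of 77 reads in replicate 1 and 48.6% of 70 in replicate 2. Reads that carried an intron of the added exon of 54 bases at chr10:80136690-80136743, or crossed the place without one, covered both kinds of model. Of these, 25 of 38 in replicate 1 and 42 of 62 in replicate 2 carried an intron of this exon, a mean of 66.8% ± 1.38.

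Members that shared the coding transcript's stop codon formed another kind of form. Chpt1 encodes a choline phosphotransferase that makes phosphatidylcholine. Chpt1-207 had 160 of 902 reads (17.7%) in replicate 1 and 64 of 386 (16.6%) in replicate 2, a mean of 17.2% ± 0.82 (SD, n = 2), and its stop codon was 72 bases before the last junction. Efhd1, a mitochondrial calcium-binding protein, gave Efhd1-202 with 18 of 105 and 20 of 141 reads, or 17.1% and 14.2%. This transcript reads the same 240 codons as the longest coding form and differs by an intron of 125 bases, with the stop codon 51 bases before its junction. Crebzf, a transcription factor with a leucine zipper, gave Crebzf-205 with 51 of 153 reads (33.3%) and 20 of 40 (50%), a mean of 41.7% ± 11.8, through an intron of 1047 bases inside an exon. The intervals of Crebzf-205 overlapped between the libraries.

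The other 4 of the 12 members with the highest CPM had mean shares from 5.65% to 32.1%. Pcnp-206, of a nuclear protein with PEST sequences, had 45 of 130 reads (34.6%) and 8 of 27 (29.6%). Tk2, the thymidine kinase of mitochondria, gave Tk2-202 with 29 of 91 reads (31.9%) and 12 of 61 (19.7%), through skipping of an exon of 74 bases at chr8:104236772-104236845. Zfand5, a zinc finger protein that binds the proteasome, gave Zfand5-204 with 21 of 400 reads (5.25%) and 14 of 145 (9.66%), through skipping of an exon of 104 bases at chr19:21277655-21277758. For these 3 members the 95% intervals of both libraries overlapped. Iscu, the scaffold on which iron-sulfur clusters are built, gave Iscu-205 with 61 of 1349 reads (4.52%) and 29 of 428 (6.78%), and the annotation tags this transcript as incomplete.

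**Figure D2:**
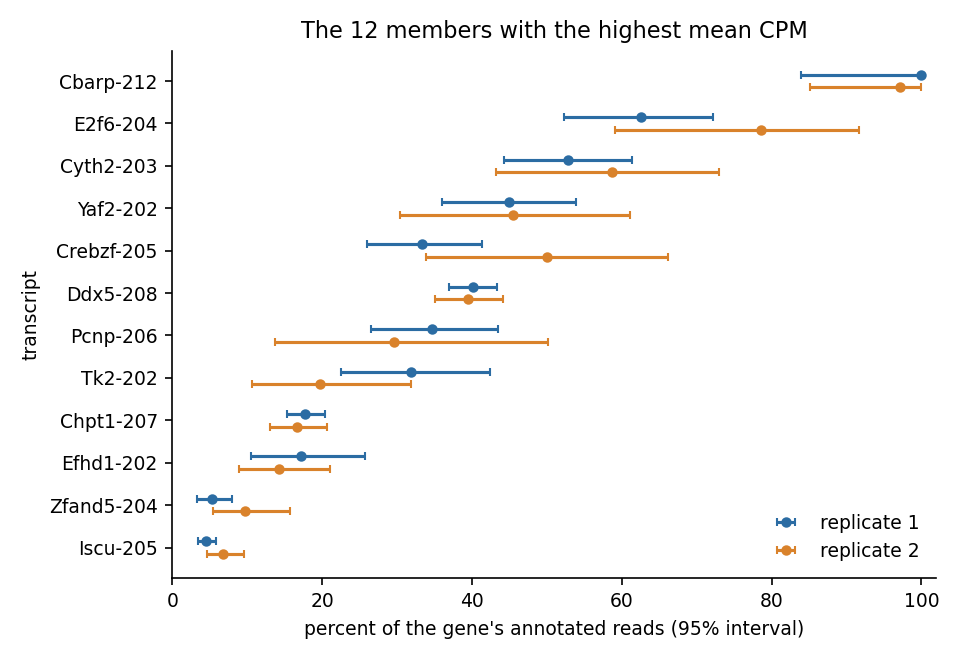
Share of the gene's annotated reads (horizontal axis, percent) for the 12 members with the highest mean CPM, in replicate 1 (blue) and replicate 2 (orange), with exact 95% intervals. The intervals of the 2 libraries overlap for each member, and the means run from 5.65% for Iscu-205 to 98.6% for Cbarp-212.

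In a few genes several NMD transcripts together held about as many annotated reads as all other forms, or more. Of the 606 genes, 538 had 1 member, 60 had 2, 6 had 3, Crebzf had 4 and Tmem234 had 6. The 4 members of Crebzf held 83 of 153 reads (54.2%) in replicate 1 and 29 of 40 (72.5%) in replicate 2. Over all reads of the gene these shares were 52.5% and 72.5%. The 6 members of Tmem234 held 44 of 89 reads (49.4%) and 29 of 56 (51.8%), a mean of 50.6% ± 1.66 (SD, n = 2), but 29.1% and 34.5% of all reads of the gene. The most read of the 6, Tmem234-210, had 17 and 12 reads.

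Of the 12 gene lists, that of hnRNPs and other splicing factors had the highest share of NMD reads. Of its 52 genes, 38 carry an annotated NMD transcript, and 20 of these held 23 members. The members took 8.28% of the list's annotated reads in replicate 1 and 9.13% in replicate 2. Without Ddx5 these shares were 2.13% and 2.12%, against 0.294% and 0.298% over all genes. Hnrnpa1-203, of a splicing repressor, had 25 of 167 and 5 of 56 reads. Hnrnpdl-201, of a protein related to hnRNP D, had 16 of 44 reads (36.4%, interval 22.4 to 52.2%) and 5 of 7 (71.4%, 29.0 to 96.3%). With all reads of the gene as denominator its shares were 20.5% and 26.3%.

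The list of SR proteins and TRA2, which regulate splicing through exonic enhancers, had the second highest share of the 12. Of its 13 genes, 11 carry an annotated NMD transcript, and 5 of these had a member. The members held 1.39% and 1.37% of the list's annotated reads, above the 0.294% and 0.298% over all genes. Without Srsf3 these shares were 0.831% and 0.797%. Within their genes, the 5 members had a median share of 0.988%, against 1.78% for the 316 members in well-read genes. How far a list's share follows the number of its genes with an annotated NMD transcript was not tested. Srsf3-201 includes an exon of 456 bases and had 10 of 240 reads (4.17%) in replicate 1 and 4 of 81 (4.94%) in replicate 2. Tra2b-206 includes an exon of 276 bases and had 3 of 94 and 3 of 41 reads. Srsf6-201 had 1 read in each library. In the list of hnRNPs and other splicing factors, and named after its values were seen, Ptbp1-201, which skips an exon of 34 bases in the gene of the polypyrimidine tract-binding protein, had 0 of 26 reads in replicate 1 and 1 of 70 in replicate 2.

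No member was read in the genes that carry out the decay. Of 25 genes for NMD factors and the exon junction complex, such as Upf1, Smg1 and Eif4a3, 5 carry an annotated NMD transcript. These forms had 0 of 1158 annotated reads of the list in replicate 1 and 0 of 438 in replicate 2, which allows shares of up to 0.259% and 0.685% at 3 counts. The exact 95% upper bounds, 0.318% and 0.839%, both lie above the 0.294% and 0.298% over all genes.

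Genes of steroid synthesis, the main task of the adrenal cortex, gave few NMD reads. Their annotated reads numbered 67356 in replicate 1 and 36534 in replicate 2, and members took 0.0371% and 0.0219% of them. Only 3 of the 25 genes of the list carry an annotated NMD transcript, and members were read in Mrap and Cyb5a. Mrap encodes the accessory protein that brings the ACTH receptor to the cell surface. Mrap-204 had 13 of 824 reads (1.58%) and 7 of 410 (1.71%), and Mrap-202 had 11 and 1. Cyb5a-208, of a cytochrome b5 that assists steroid lyase activity, had 1 of 432 reads in replicate 1 and 0 of 116 in replicate 2. Cholesterol supply had 1 member, Mvd-202, with 1 read in each library. The genes of the medulla had 1 member, Stx1a-204 of a syntaxin, with 6 of 11 and 1 of 3 reads.

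Genes of the respiratory chain lay below the share over all genes. Transfer RNA synthetases lay above it, with exact 95% intervals that include it, but below it without Yars2 (0.128% and 0.287%). Subunits of the respiratory chain and ATP synthase gave 7 members with 0.137% and 0.0831% of the list's annotated reads, led by Ndufa7-202 of complex I with 21 of 354 reads (5.93%) and 6 of 82 (7.32%). Surf1, which assembles cytochrome c oxidase, gave Surf1-209 with 13 of 66 reads (19.7%) and 6 of 30 (20.0%). Gfer, a sulfhydryl oxidase of the mitochondrial intermembrane space, gave Gfer-204 with 11 of 47 reads (23.4%) and 7 of 21 (33.3%). The transfer RNA synthetases gave 0.426% and 0.632% of their annotated reads. Of these, Yars2-203 of the mitochondrial tyrosyl enzyme had 12 of 79 reads (15.2%) and 5 of 31 (16.1%), and Farsb-204 of the cytosolic phenylalanyl enzyme had 5 of 90 and 4 of 38. These 2 were the members of that list, in which 20 of 36 genes carry an annotated NMD transcript.

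The lists of ribosomal and initiation factor genes lay below the share over all genes in both libraries, and that of proteasome genes lay slightly above it, with exact 95% intervals that include it. The 11 members in 9 of 19 cytosolic ribosomal protein genes with an annotated NMD transcript held 0.112% and 0.160% of the list's annotated reads, and Rpl10a-203 led with 6 of 357 reads (1.68%) and 3 of 131 (2.29%). The 7 members of mitochondrial ribosomal protein genes held 0.259% (exact 95% interval 0.153 to 0.409%) and 0.204% (0.0663 to 0.476%). These intervals also include the share over all genes. The 5 members of proteasome genes held 0.358% and 0.324%. Without Psma3 these shares were 0.0964% and 0.201%, below the share over all genes. Translation initiation factors had 1 member, Eif4a2-210, with 2 of 375 and 1 of 175 reads. In Psma3, a core proteasome subunit, Psma3-201 differs by 5 bases at a splice site and had 14 of 348 reads (4.02%) and 4 of 105 (3.81%).

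The members' structure, taken from the annotation, showed how the early stop arises. In 395 members (57.6%) the stop codon lay in coding bases read in another frame, and in 210 (30.6%) it lay in bases that no coding transcript of the gene uses. In 58 members the stop codon was that of a coding transcript, and in 44 of these the whole reading frame was also the same, as in Efhd1-202. Those 44 held 11.8% and 12.5% of NMD reads. The stop codon was UGA in 382 members (55.7%), UAG in 153 and UAA in 151.

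Compared with the closest coding transcript of the gene, 247 members used another splice site, 166 skipped an exon, 136 added one, and 22 kept an intron. Several such differences occurred together in 73. Skipped exons had a median of 99 bases, and 149 of 152 (98.0%) were not a multiple of 3 bases long. Other splice sites moved the boundary by a median of 52.5 bases, with 221 of 244 (90.6%) not a multiple of 3. Added exons had a median of 100 bases, with 89 of 132 (67.4%) not a multiple of 3. A shift of the reading frame is a way to the early stop by which the class is assigned. These percentages thus follow in part from the label that chose the members. The kept introns, 22 in all, held 15.8% and 17.5% of NMD reads, most of them in Ddx5-208.

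The stop codon lay far before the last junction in most members. The median distance was 355.5 bases (quartiles 163 and 739), from 49 in Tomm22-203 to 3667 in Lonp1-202, and Tomm22-203 was the single member under 50 bases. This distance is part of how the annotation assigns the class. At least 2 junctions followed the stop in 538 members, and 29 did in Ttc3-213. The members read a median of 98 codons, where the longest coding transcript of the gene had a median of 353. Among 570 members with a shared start and a stop codon of their own, the median distance from where the reading left the coding transcripts to the end of the stop was 41 bases, and it was within 60 bases in 366 (64.2%), as in 7 of the 8 sequences above.

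**Figure D3:**
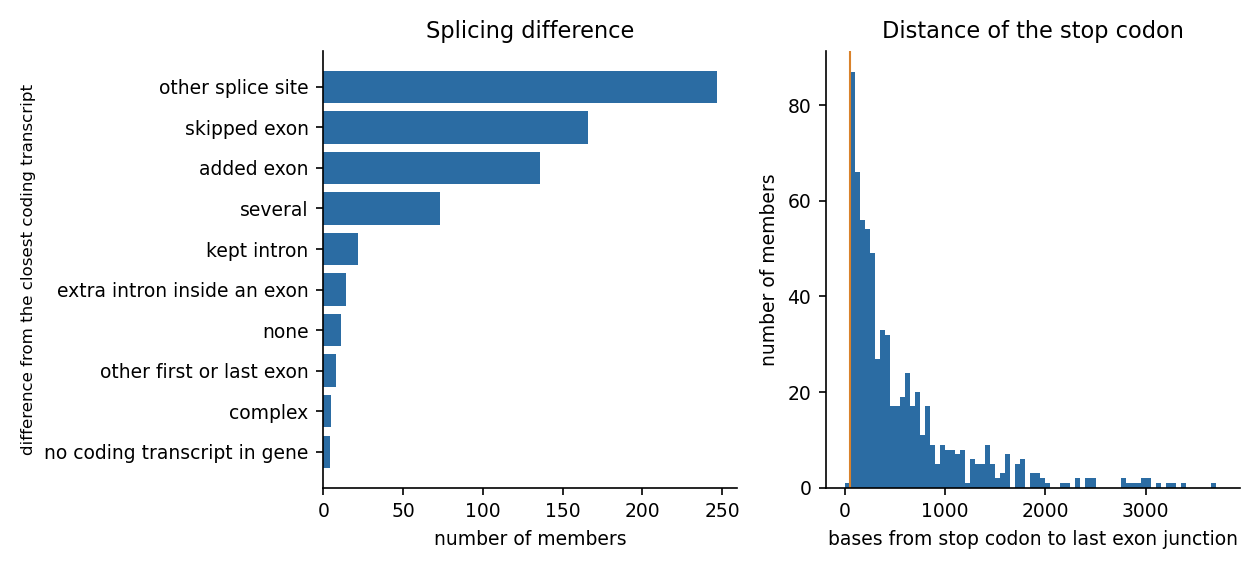
Left, number of members (horizontal axis) by the kind of splicing difference from the closest coding transcript. Right, number of members (vertical axis) by bases from stop codon to last exon junction, in bins of 50 bases, with a line at 50. Other splice sites lead with 247 members, and 1 member falls left of the line.

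By rank, the libraries agreed closely on the shares of well-read members and loosely on those of all members in well-read genes. In percentage points the well-read members were not closer. The median absolute difference over the 115 members tested below, with at least 5 reads, was 2.54. Across the 316 members in genes with at least 20 annotated reads in each library, Pearson's r of the shares was 0.93 and Spearman's rho 0.47. Across the 23 of these with at least 20 reads over both libraries, r was 0.96 and rho 0.93, the median absolute difference was 2.96 percentage points, and 16 lay within 5 percentage points. These correlations are across transcripts that share each library's depth. The largest difference among the 23 was 16.7 percentage points, for Crebzf-205.

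**Figure D4:**
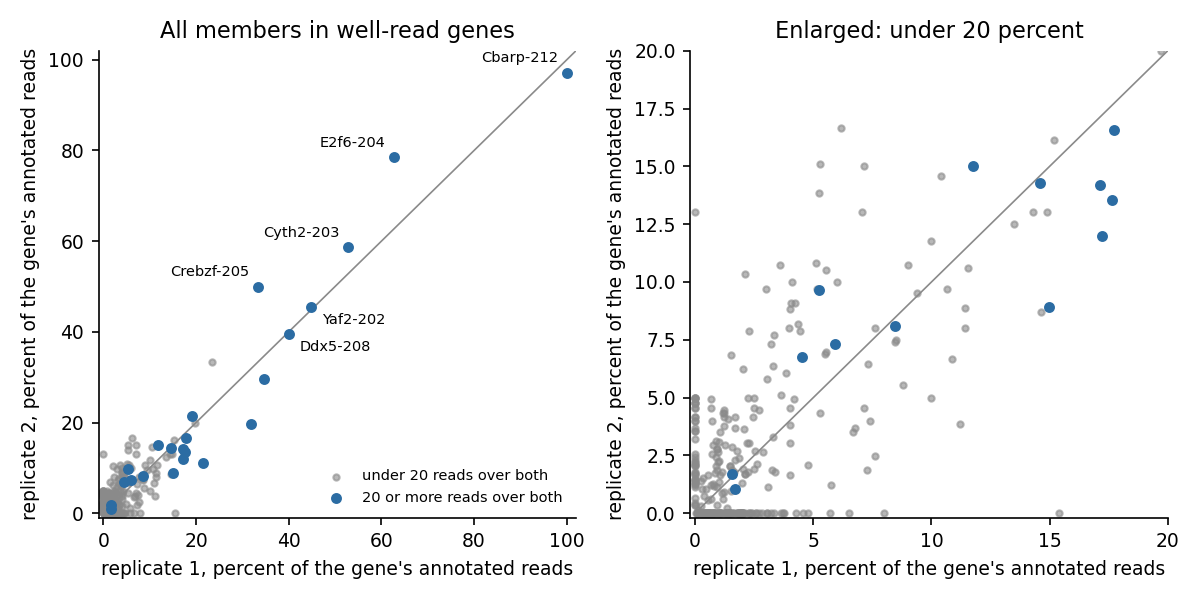
Share of the gene's annotated reads in replicate 1 (horizontal axis, percent) against replicate 2 (vertical axis, percent) for 316 members in genes with at least 20 annotated reads in each library, with the part under 20 percent enlarged at right. Of the 23 members with at least 20 reads (blue), 16 lie within 5 percentage points of equal shares (grey line), and Crebzf-205 differs most, by 16.7. Members with fewer reads are shown in grey.

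No member's share of its gene differed between the libraries by the test across all annotated transcripts. The two-sided Fisher's exact test with Benjamini-Hochberg adjustment over 4219 transcripts called 0 of 115 members tested, where it called 1.64% of all transcripts tested. At an unadjusted p under 0.05 there were 3 members (2.61%), 1110004F10Rik-204, Dcaf11-213 and Ppp1cc-203, against 7.13% of all tested, and the smallest adjusted p of a member was 0.532. Members have few reads. Among transcripts with under 50 reads, the test called 25 of 1796 (1.39%) and 0 of 106 members. The share was higher in replicate 2 for 62 members and lower for 53, and the median absolute difference was 2.54 percentage points against 2.81 for all transcripts tested. Of 324 retained-intron transcripts tested, 25 (7.72%) were called.

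Beyond counting error, the reads of 2 members differed between the libraries. The members entered by having reads in either library, which is not independent of these levels, so the calls are read beside those of all transcripts. The same test of a transcript's reads against all other annotated reads called 2 of 171 members (1.17%) where it called 16.1% of all 12316 transcripts tested, and 1 of 162 members against 8.68% of all among those with under 50 reads. Log2 ratios of replicate 2 to replicate 1 were computed per annotated read with 0.5 reads added, so they differ a little from the ratio of the CPM values. Their median was 0.28 for the members and -0.01 for all. The added 0.5 reads raise this ratio for transcripts with few reads, because replicate 2 has fewer reads in total. Under 50 reads were held by 162 of the 171 members, against 7940 of all 12316 transcripts, so the medians are not a like comparison. How much of the 0.28 this gave was not tested. All members together held 0.294% and 0.298% of annotated reads. Cbarp-212 had 21 reads (17.4 CPM) in replicate 1 and 34 (67.6 CPM) in replicate 2, and a log2 ratio per annotated read of 1.85 ± 0.40 (SE of counting), with an adjusted p of 5.28e-05 by Fisher's exact test. Efhd1-202 had 18 reads (14.9 CPM) and 20 (39.8 CPM), and a log2 ratio per annotated read of 1.32 ± 0.46, with an adjusted p of 0.0463 by the same exact test. Its share of the gene's annotated reads was 17.1% and 14.2%. Over the same libraries the 5 medulla markers Th, Chga, Chgb, Dbh and Pnmt summed to 11580 and 6677 CPM, with Th and Dbh higher and the other 3 lower in replicate 2. Fat markers summed to 6758 and 6515 CPM and red blood cell markers to 923 and 583 CPM, and of the kidney markers Nphs1 was at 0 in replicate 1 and Umod at 0 in replicate 2. The part of these cell types in the difference was not tested, and in whole tissue fewer cells of a type and less RNA per cell cannot be told apart.

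Reads outside the annotated models also carried the members' introns. Of the 686 members, 530 have an intron found in no other kind of M21 transcript of the gene. Reads with such an intron numbered 2974 in replicate 1 and 1300 in replicate 2. Annotated models held 57.6% and 58.0% of them, models that the authors class as new in catalog 30.8% and 28.7%, incomplete splice matches 7.33% and 6.54%, and models new not in catalog 4.27% and 6.77%. Both new classes have a chain of introns that M21 lacks. For 266 members the intron was also read outside annotated models, and for 120 of them in both libraries.

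A share that counts every read with the intron was higher than the annotated share in 140 of 275 members. Spanning reads are here those with such an intron and those that cross the outer ends of all such introns of the member. Reads with the intron need not cross these ends, which can raise this share. The 275 members had at least 20 such spanning reads in each library. Their median share of spanning reads with the intron was 2.5%, against a median annotated share of 1.85%. The share of spanning reads with the intron reached 20% for 21 members, where 9 reached 20% by annotated reads. Between the libraries, Pearson's r of this share across the 275 members was 0.91 and Spearman's rho was 0.60.

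**Figure D5:**
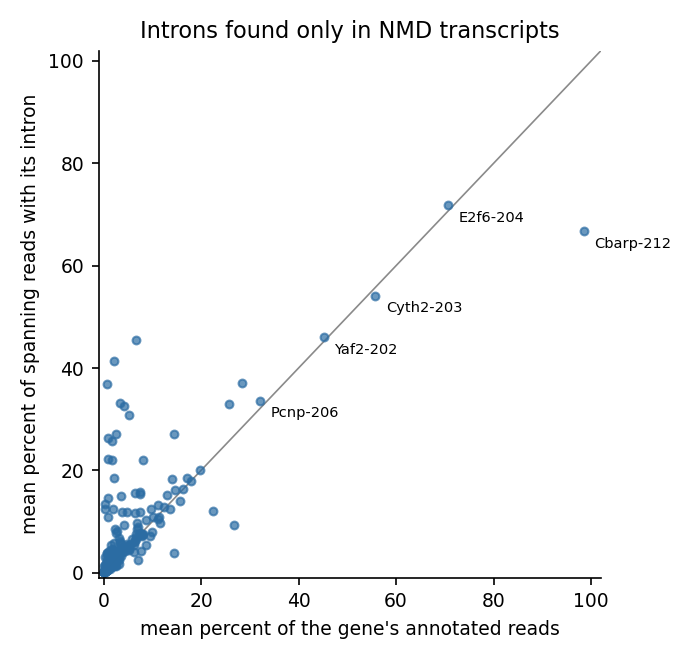
Mean share of the gene's annotated reads (horizontal axis, percent) against the mean share of spanning reads of all model classes that carry an intron found only in NMD transcripts (vertical axis, percent), for 275 members. E2f6-204, Cyth2-203 and Yaf2-202 lie near the grey line of equal values, Cbarp-212 lies below it at 98.6% and 66.8%, and a group at the left has low annotated shares with higher intron shares.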

How the data were processed

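Long-read RNA sequencing of 2 adrenal gland libraries was analysed from the deposited count tables and the deposited transcript models. The values are raw whole-number counts that the authors deposited without normalisation. Per the deposited readme files, they derive from filtered alignments on mm10 with the GENCODE M21 annotation, and models carry the source TALON per the file headers. For the aligner, the platform and the TALON version, nothing is given in the sources used here. Rows of class Known were read as annotated models. The exons of all 283724 annotated models compared over both files were those of M21. Spike-ins and the mitochondrial chromosome were left out.

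Shares used annotated reads of the gene as denominator. CPM used all reads of annotated nuclear genes, 1209457 and 502655. Each transcript with at least 5 reads over both libraries, in a gene with at least 20 annotated reads in each and at least 2 transcripts with reads, had its share tested with Fisher's exact test, two-sided, with Benjamini-Hochberg adjustment over all transcripts tested and calls under 0.05. With 1 library on each side, the test covers counting error only. Intervals are exact Clopper-Pearson 95% intervals. The test was tested on simulated data. Stop codons, junctions and introns were computed from M21. The members and gene lists were chosen with earlier results of these data known. Named members are the 12 with the highest mean CPM, the 12 with the highest mean share (at least 5 reads in each library and the gene depth above), the called changes and the 3 highest of each gene list. Members named for their count or an extreme value outside this rule were chosen after their values were seen. Alternatives covered read minimums, denominators, thinning of replicate 1 to the annotated reads of replicate 2, left-out transcripts and each library by itself. Python 3.11.15, pandas 2.3.3, NumPy 2.4.6, SciPy 1.17.1 and matplotlib 3.10.9 were used. Allele-specific reads of the cross were not analysed here.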

Additional observations from a re-analysis of the deposited data

How the results depend on the processing

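No paired analysis was possible because the 2 libraries form 1 group and there is no second group to pair. The number of members fell from 686 to 281 with at least 3 reads over both libraries and to 82 with at least 3 reads in each, and was 403 to 568 from a single library. Members in both libraries likewise fell from 285 to 82 with at least 3 reads in each. With replicate 1 thinned, 570 members and 225 in both remained, and these stayed within 1.5 times of the full counts. The share of NMD reads was 0.234% of all reads of annotated nuclear genes, and then differed between the libraries by 0.0192 percentage points (0.225% and 0.244%, two-sided Fisher's exact test, p = 0.0173). It was 0.194% without the 10 most read members, 0.275% without incomplete transcripts and 0.292% without members that have the introns of a coding transcript, a setting added after the data were seen. The number of genes with an NMD transcript at 50% or more of annotated reads was 10 with at least 5 annotated reads of the gene in each library, 0 with at least 50, 1 with all reads of the gene as denominator, and 3 to 4 from a single library. The test of reads against all other annotated reads called 2 members in place of 0. The denominator of all reads moved 16 of the 40 named shares by more than their SD, and 4 by over 1.5 times (Tmem234-210, Hnrnpdl-201, Stx1a-204 and Cbarp-212). The cause of these changes was not tested. Depth limits members with few reads most, since 271 rest on 1 read.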

Other observations

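Some members with almost no annotated reads had an intron that many other reads of the gene carried. Counting reads of every model class, 9 members had a mean of at least 20% of spanning reads with their intron but under 5% of the gene's annotated reads. They were chosen after their values were seen. An intron shared with another NMD transcript of the gene also counts the reads of that transcript. Cox18, which helps to insert a subunit of cytochrome c oxidase, showed this most. Cox18-206 had 0 of 56 annotated reads in replicate 1 and 1 of 24 in replicate 2, while its intron was in 41 of 98 spanning reads (41.8%) and 16 of 39 (41.0%). Cnot2-212, of a subunit of the CCR4-NOT complex that shortens poly(A) tails, had 1 and 0 annotated reads, and its introns were in 27 of 97 (27.8%) and 11 of 44 (25%) spanning reads. Setd3-205, of an actin histidine methyltransferase, had 4 and 1 annotated reads, and introns in 83 of 301 (27.6%) and 16 of 97 (16.5%).

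RNA-binding proteins were among these genes. Rbm3-207, of a cold-inducible RNA-binding protein, adds an exon of 271 bases and had 1 and 0 annotated reads. Its introns were in 23 of 97 spanning reads (23.7%) in replicate 1 and 10 of 20 (50%) in replicate 2. Tardbp-230, of the RNA-binding protein TDP-43, had 1 annotated read in each library, and introns in 19 of 76 (25%) and 10 of 25 (40.0%) spanning reads. The other members were Rabggtb-203, Rabggtb-212, Tk2-204 and Tmem234-203, all in genes with more than 1 member. In these genes Tk2-202 and Tmem234-210 had mean annotated shares of 25.8% and 20.3%. Whether reads of such other members gave the intron values was not tested. The libraries gave like values for Cox18-206 and Cnot2-212 and wider ones for Rbm3-207 and Tardbp-230, where replicate 2 had 20 and 25 spanning reads.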
